A study of Mus musculus with 4 samples.

Results

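The genes described here encode cytokines of the interleukin-6 (IL-6) family (Il6, Lif, Il11 and Clcf1), receptor chains through which the family acts (Il6ra, Il6st, Lifr and Osmr), the transcription factor Stat3 and its feedback inhibitor Socs3. They are 10 of the 19938 genes measured by a probe set with exactly 1 gene symbol. The list was drawn up around Il6, which had been chosen by its large difference between the groups, so the values of Il6 are given as a description with no test. Where a gene had several probe sets, the one with the highest mean over the 4 arrays was taken; only Socs3 had more than 1, and the 10 genes had 11 probe sets in all.

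Expression was measured in mesoangioblasts, vessel-associated progenitors able to form skeletal muscle, isolated from the tibialis anterior of adult male C57/BL6 mice and kept proliferating in serum. A polyclonal population received either a lentivirus with a control hairpin (shCtrl, called shScramble in the treatment label, 2 arrays) or a lentivirus with a short hairpin RNA against PW1, the zinc-finger protein encoded by Peg3 (shPW1, 2 arrays). Each array was hybridized with a separate RNA extraction of one of these transduced populations, so the p-values reflect how far repeat extractions differed, a spread that may be technical, and not how far cultures differ. The study's methods put the PW1 hairpin in the vector pLV-H1 and list a control hairpin in pLKO.1, and a difference of vector cannot be told apart from the effect of a single hairpin. Values are log2 expression from Affymetrix Mouse Gene ST arrays, normalized by RMA by the authors, and a change is called at an adjusted p under 0.05 (limma, Benjamini-Hochberg over 21789 probe sets).

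IL-6 family cytokines signal through receptors that share the chain gp130, encoded by Il6st. IL-6 and IL-11 first bind their own chain (Il6ra for IL-6) and then a pair of gp130 molecules, whereas LIF uses gp130 together with the LIF receptor chain (Lifr) and oncostatin M uses gp130 together with Osmr. Jak kinases bound to these chains phosphorylate Stat3, which induces Socs3, and Socs3 then blocks the receptor complex. In skeletal muscle these cytokines act on progenitors as well as on inflammatory cells.

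Peg3 itself had log2 values of 8.67 and 8.70 in shCtrl and of 6.22 and 6.47 in shPW1, so it was lower in both arrays labelled shPW1. The median log2 value of the arrays lay between 5.40 and 5.49. It was lower in both shPW1 arrays (5.44 and 5.40) than in both shCtrl arrays (5.47 and 5.49). Of 15 measured leukocyte markers, 0 were called in either direction by limma, with 0 higher and 1 lower at an unadjusted p under 0.05 and 0 by the methods' analysis of variance. Their mean log2 level was 4.46 and 4.59 in shCtrl and 4.54 and 4.46 in shPW1, and 3 of them lay above the middle of all rows. Of 8 endothelial markers, 0 were called, also 0 at an unadjusted p under 0.05 and 0 by that analysis of variance. The study knows of no single marker that defines mesoangioblasts across species, so a list of mesoangioblast and pericyte markers was used. Of 10 measured, 6 fell and 0 rose by limma, and Ly6a, also listed, was not measured. Over all genes except Il6, by their brightest probe set, 4.35% were called lower and 4.92% higher. At an unadjusted p under 0.05, 1 marker was higher and 7 lower, against 0 and 7 by the analysis of variance. Among those that fell were the pericyte receptor Notch3 (log2 fold change -1.10) and the proteoglycan Cspg4 (-0.66). The number of these markers called lower was 4 with array medians subtracted, 2 with the replicate number as a block and 1 when all rows were tested. Their mean log2 level was 8.33 and 8.36 in shCtrl against 7.99 and 7.98 in shPW1. Alpl encodes an alkaline phosphatase, an activity that the study gives as a marker of adult human mesoangioblasts. It lay near the middle of all rows in these mouse cells, at 5.73 to 5.95 in the 4 arrays. What part this shift has in the values below was not tested, and in bulk RNA fewer cells of a type and less RNA per cell cannot be told apart.

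Because Il6 and Lif had the largest log2 differences among the 4 ligands, the 250 bases before their annotated starts are shown. They come from RefSeq promoter tables of build GRCm38.p6, which held windows for 9 of the 10 genes (all but Clcf1), and lie on the plus strand at chr5:30012864-30013113 for Il6 and chr11:4257318-4257567 for Lif. Capitals mark matches, on either strand, to an AP-1 motif (TGANTCA), a C/EBP motif (TTNNGNAA), an NF-kappaB motif (GGGANNTTC) and a Stat motif (TTCNNNGAA).

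Il6: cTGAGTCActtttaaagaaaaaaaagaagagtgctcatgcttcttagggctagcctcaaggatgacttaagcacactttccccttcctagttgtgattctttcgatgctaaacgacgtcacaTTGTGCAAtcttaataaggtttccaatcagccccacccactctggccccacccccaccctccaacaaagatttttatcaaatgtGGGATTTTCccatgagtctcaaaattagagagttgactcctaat

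Lif: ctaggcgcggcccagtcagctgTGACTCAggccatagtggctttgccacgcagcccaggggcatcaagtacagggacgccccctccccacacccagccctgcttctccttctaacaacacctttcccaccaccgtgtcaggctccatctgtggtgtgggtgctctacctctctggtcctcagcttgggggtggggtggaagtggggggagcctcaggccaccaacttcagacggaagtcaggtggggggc

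The Il6 window held an AP-1, a C/EBP and an NF-kappaB match, beginning at -249, -128 and -44 (-1 being the last base before the start), and the Lif window held an AP-1 match at -228. Of the 9 genes with a window, 3 had an AP-1 match (Il6, Lif and Il11), 3 a C/EBP match (Il6, Il6ra and Stat3), 1 an NF-kappaB match (Il6) and 1 a Stat match (Socs3). The 9 genes had 11 windows, with more than 1 for Il11 and for Lifr. Those of Lifr, Osmr and Socs3, and the Il11 window with the AP-1 match, lay inside the annotated span of the gene and not before it. Over all 32851 promoter windows of the same length, counted per window and not per gene, the shares were 6.75% for AP-1, 36.85% for C/EBP, 3.23% for NF-kappaB and 7.02% for Stat. No matches of different motifs overlapped in these genes. The Stat match of Socs3 is shown with its neighbouring bases, on the minus strand at chr11:117969502-117969530, because Socs3 is the feedback gene of the pathway.

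Socs3: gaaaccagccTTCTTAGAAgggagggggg

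Such a match describes letters only, and no binding was measured in these cells.

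Of the 9 genes that were tested, 3 were called higher in shPW1 (Lif, Il6ra and Il6st), 2 were called lower (Lifr and Osmr) and 4 did not pass (Il11, Clcf1, Stat3 and Socs3). Over all probe sets 4.93% were called higher and 4.17% were called lower. All 9 had shPW1 values that did not overlap the shCtrl values, as had 55.5% of all probe sets. The median log2 fold change of the 9 genes was 0.03, against -0.01 over all genes except Il6 by their brightest probe set. The balance of calls depends on centring: 54.2% of all called probe sets were higher, and 68.2% after the median of each array was subtracted. With any 1 of the 4 arrays left out, limma called 0 probe sets and so 0 of these genes (3790 to 5379 probe sets had an unadjusted p under 0.05), while all log2 fold changes of these genes kept their sign.

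**Figure D1:**
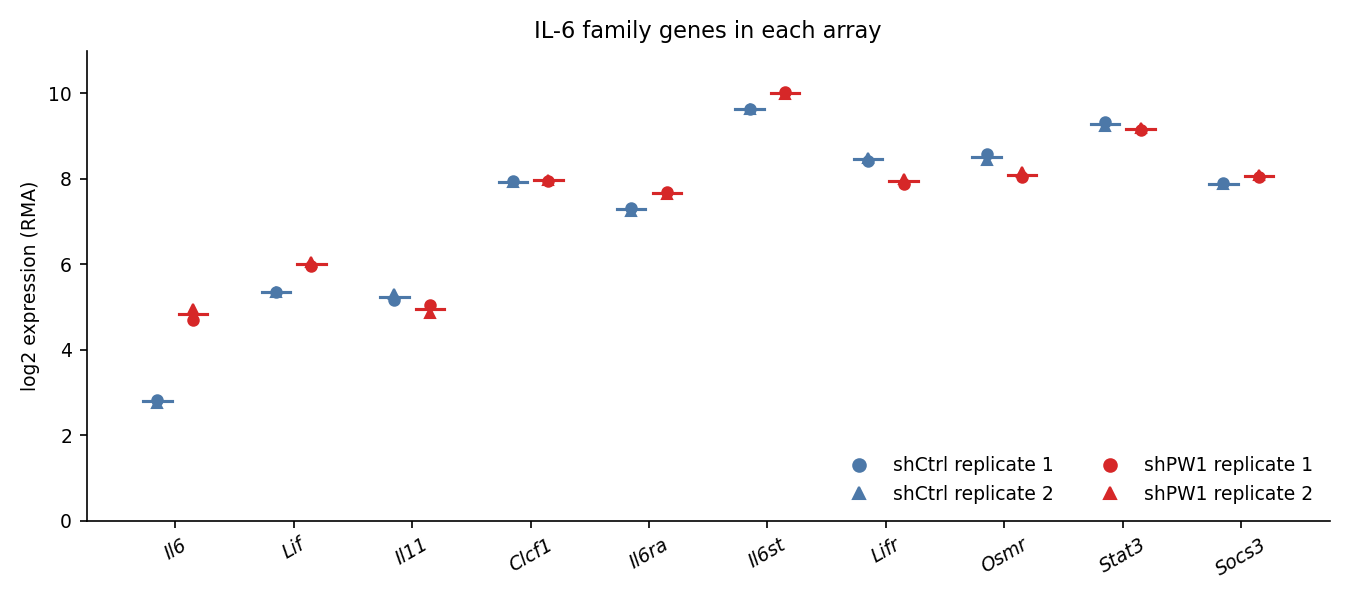
Log2 expression (vertical axis, RMA values) of the 10 genes in each array; blue marks are shCtrl and red marks shPW1 arrays, circles replicate 1 and triangles replicate 2, and short lines are group means. Il6 lies at 2.76 and 2.81 in shCtrl and at 4.70 and 4.96 in shPW1, and the other genes differ by less than 1 on this scale.

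The ligands did not move as a group. Il6, which encodes the family's founding cytokine (chr5:30013114-30019975, GRCm38.p6), had log2 values of 2.81 and 2.76 in shCtrl and of 4.70 and 4.96 in shPW1. Both shPW1 arrays were above both shCtrl arrays, and the difference of means was 2.04 on the log2 scale, a 4.12-fold higher value and the sixth highest of all genes (rank 6 of 19938). Il6 was dim in shCtrl, at percentile 9.5 of all 35556 rows, and lay at percentile 39.7 in shPW1. No detection call was made, so the size of its difference is uncertain. Leaving out 1 array moved it between 1.91 and 2.18.

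Lif, which encodes leukaemia inhibitory factor, a cytokine that also sustains mouse embryonic stem cells, was the only tested ligand that rose. Its log2 expression was 5.36 in both shCtrl arrays and 5.96 and 6.06 in the shPW1 arrays. The replicates of each group lay close together, and the log2 difference was 0.65 with a standard error of 0.06 (limma, adjusted p = 0.0137), with a 95% confidence interval from 0.48 to 0.82. It was also the only one of the 5 called genes that was still called with the replicate number as a block (adjusted p = 0.0429).

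Il11, which encodes a cytokine known for its action on stromal and blood-forming cells, had a log2 expression of 5.17 and 5.31 in shCtrl and of 5.05 and 4.85 in shPW1. Its log2 fold change of -0.29 (adjusted p = 0.14 from limma) did not pass. Clcf1, which encodes cardiotrophin-like cytokine factor 1, a ligand of the CNTF receptor, was nearly level at 7.94 and 7.93 in shCtrl and 7.96 and 7.98 in shPW1. The 95% confidence interval of its log2 fold change ran from -0.12 to 0.18, so changes of the size seen for Lif lie outside it.

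Of 6 other measured ligands of the family, 1 fell and 0 rose by limma (1 lower and 0 higher both at an unadjusted p under 0.05 and by the methods' analysis of variance), with a median log2 fold change of -0.19. The one that fell was Ctf1, which encodes cardiotrophin 1, from 5.46 and 5.43 in shCtrl to 5.13 and 5.04 in shPW1, a log2 difference of -0.36 (limma, adjusted p = 0.0384). That call was lost in limma with array medians subtracted (adjusted p = 0.0519), with the replicate number as a block (adjusted p = 0.0881) and in a fit to all rows (adjusted p = 0.117). Osm, the gene of oncostatin M, did not pass and was dim, with log2 values from 4.25 to 4.53 over the 4 arrays. Lif was thus the only called rise among the ligands tested.

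The receptor chains changed in both directions, and all 4 were called. Il6ra, which encodes the chain that binds IL-6 (chr3:89869324-89913196), had a log2 expression of 7.31 and 7.26 in shCtrl and of 7.70 and 7.64 in shPW1. Its log2 difference was 0.38 with a standard error of 0.06 (limma, adjusted p = 0.0346), a 1.30-fold higher value. Il6st, the gene of the shared chain gp130 (chr13:112464070-112506860), rose by a like amount, from 9.64 and 9.63 to 10.04 and 9.99, a log2 difference of 0.38 with a standard error of 0.06 (limma, adjusted p = 0.0304). Both chains of the IL-6 receptor therefore had shPW1 values above all shCtrl values.

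Lifr and Osmr, which encode the chains that pair with gp130 for LIF and oncostatin M and both lie on chromosome 15 (chr15:7090610-7197489 and chr15:6813568-6874968), were lower. Lifr had a log2 expression of 8.43 and 8.50 in shCtrl and of 7.89 and 7.999 in shPW1, a log2 difference of -0.52 with a standard error of 0.07 (limma, adjusted p = 0.0245). Osmr had values of 8.58 and 8.45 in shCtrl and of 8.04 and 8.15 in shPW1, a log2 difference of -0.42 with a standard error of 0.08 (limma, adjusted p = 0.045). Osmr had the highest adjusted p of the 5 calls and was lost when array medians were subtracted (adjusted p = 0.0587). When all rows were tested, none of the 5 calls held, with adjusted p from 0.0697 for Lif to 0.132 for Osmr by limma.

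As pairs, and set against their shCtrl mean, Il6ra and Il6st averaged 0.41 and 0.35 in the shPW1 arrays and Lifr and Osmr averaged -0.52 and -0.41. The gap between the pairs was 0.93 and 0.77 on the log2 scale in the shPW1 arrays and 0.0003 and -0.0003 in the shCtrl arrays. The subtraction centres the shCtrl values on 0, and deviations of single genes, such as those of Lifr and Osmr, cancel in them. They are therefore no measure of the spread between shCtrl arrays. This grouping was made after the values were seen, so the gap is a description with no test. The transcript of Lif thus rose while that of Lifr, a chain that receptors of other ligands of the family also use, fell. The mesoangioblast and pericyte markers had a lower mean log2 level in both shPW1 arrays, and the 6 that were called were lower, as were Lifr and Osmr. Among those that did not pass, Cd34 (log2 difference -0.28) and Alpl (-0.09) were lower, and Acta2 (0.16) and Rgs5 (0.09) were higher. Rgs5 was dim, with a mean log2 value of 3.75 over the 4 arrays.

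**Figure D2:**
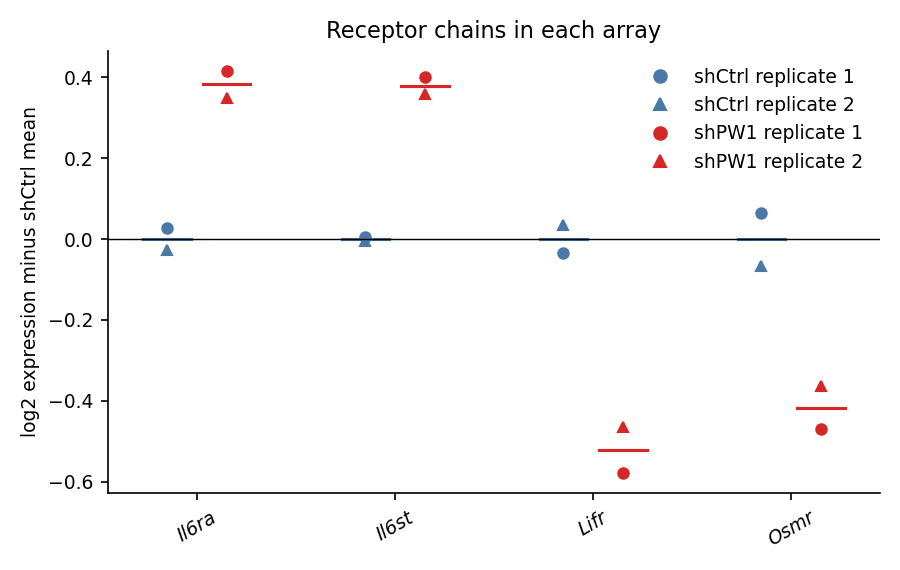
Log2 expression of the 4 receptor chains in each array after subtraction of the shCtrl mean of the gene (vertical axis); blue marks are shCtrl and red marks shPW1 arrays, circles replicate 1 and triangles replicate 2, and short lines are group means. Il6ra and Il6st lie at 0.38 in shPW1 on average, Lifr at -0.52 and Osmr at -0.42.

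Of 5 other measured receptor chains and proteases that shed receptors, 0 were called by limma (1 lower and 0 higher at an unadjusted p under 0.05, the same by the methods' analysis of variance). Adam10, a protease that can release the IL-6 receptor from the cell surface, had a log2 expression of 9.53 and 9.50 in shCtrl and of 9.17 and 9.29 in shPW1, and its log2 fold change of -0.28 (adjusted p = 0.0737 from limma) did not pass. It did pass once dim probe sets had been removed (adjusted p = 0.0491), after a second quantile normalization (adjusted p = 0.0429) and with the trended robust prior of limma (adjusted p = 0.00169). Adam17, the other main shedding protease, had a log2 difference of -0.08 (limma, adjusted p = 0.613), and it came to 0.013 without shPW1 replicate 1. The chains particular to CNTF, IL-27 and IL-31 (Cntfr, Il27ra and Il31ra) had log2 fold changes between -0.06 and -0.05 and did not pass.

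Neither Stat3 nor Socs3 was called. Stat3, the transcription factor that the receptors activate by phosphorylation (chr11:100886806-100939594), had a log2 expression of 9.32 and 9.23 in shCtrl and of 9.15 and 9.20 in shPW1. Its log2 fold change was -0.10 with a 95% confidence interval from -0.27 to 0.07 (adjusted p = 0.393 from limma). The transcript level says nothing of the phosphorylated protein, which was not measured on these arrays.

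Socs3, the feedback inhibitor that Stat3 induces, had a log2 expression of 7.90 and 7.87 in shCtrl and of 8.04 and 8.09 in shPW1 by its brighter probe set. Both shPW1 values were above both shCtrl values, but the log2 fold change of 0.18 (adjusted p = 0.138 from limma) did not pass, and its 95% confidence interval ran from 0.03 to 0.33, below the difference of 0.65 seen for Lif. The dimmer probe set did not separate the groups: it had 5.81 and 5.64 in shCtrl and 5.69 and 5.80 in shPW1, a log2 difference of 0.02 (limma, adjusted p = 0.906). With both probe sets averaged, the change of Socs3 was 0.10.

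**Figure D3:**
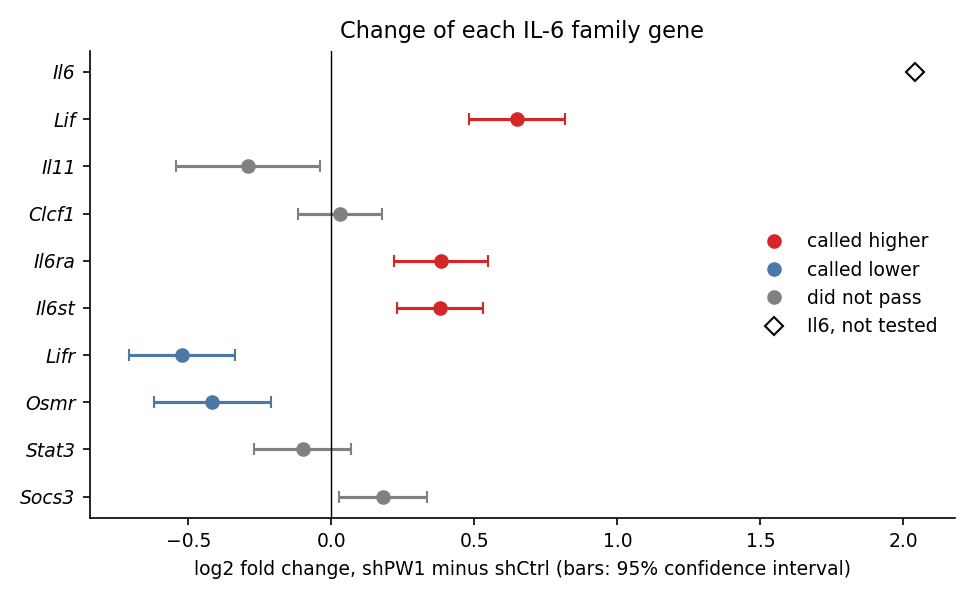
Log2 fold change of shPW1 over shCtrl (horizontal axis) for each of the 10 genes, with bars for the 95% confidence interval from limma; red was called higher, blue called lower, grey did not pass, and the open diamond is Il6, which was not tested. Lif, Il6ra and Il6st lie to the right of 0 with their whole interval, Lifr and Osmr to the left, but the unadjusted intervals of Socs3 and Il11, which did not pass, also leave out 0, and those of Stat3 and Clcf1 span it.

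Among the kinases and transcription factors beside Stat3, 1 of 8 measured genes fell and 0 rose by limma (2 higher and 2 lower at an unadjusted p under 0.05, 0 higher and 1 lower by the methods' analysis of variance). The one that fell was Stat5a, which responds to growth hormone and other cytokines, with a log2 difference of -0.42 (limma, adjusted p = 0.0272), a call that was lost with the replicate number as a block (adjusted p = 0.0731) and in a fit to all rows (adjusted p = 0.098). The kinases bound to gp130 did not pass in the reported fit. Jak1 had a log2 difference of -0.16 (limma, adjusted p = 0.156), Jak2 of 0.16 (adjusted p = 0.175) and Tyk2 of 0.06 (adjusted p = 0.634). Jak1 did pass with the trended robust prior of limma (adjusted p = 0.00616).

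Calls among other negative regulators were in both directions. Of 15 measured, 2 rose, 2 fell and 11 did not pass by limma, with a median log2 fold change of 0.01. That is 13.33% in each direction, against 4.92% higher and 4.35% lower over all genes except Il6. At an unadjusted p under 0.05, 3 were higher and 4 lower, against 2 and 2 by the methods' analysis of variance. Socs1, a feedback inhibitor of Jak kinases, rose from 7.05 in both shCtrl arrays to 7.33 and 7.35 in shPW1, a log2 difference of 0.29 (limma, adjusted p = 0.0495), and its relative Socs4 rose by 0.42 (adjusted p = 0.0255). Socs5, another relative, had a log2 difference of -0.31 (limma, adjusted p = 0.044), and Pias3, a protein that binds activated Stat3, of -0.34 (adjusted p = 0.0367). With array medians subtracted the calls of Socs5 (adjusted p = 0.0926) and Pias3 (adjusted p = 0.0617) were lost, and those of all 4 were lost in limma with the replicate number as a block and when all rows were tested. The phosphatase Ptpn11, which docks on gp130, had a log2 difference of -0.01 (limma, adjusted p = 0.914), but 0.045 once array medians had been removed.

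Of 22 measured genes that Stat3 is known to induce, 11 rose, 1 fell and 10 did not pass. The share called higher was 50%, against 4.92% of all genes except Il6 by their brightest probe set. The median log2 fold change of the list was 0.36. The list was drawn up with earlier results of these data known, so these shares are a description with no test. The share over all genes except Il6 also takes in dim genes and the listed genes themselves. Lcn2, an iron-binding acute phase protein, had a log2 expression of 4.63 in both shCtrl arrays and of 6.30 and 6.38 in shPW1, a log2 difference of 1.71 (limma, adjusted p = 0.00383). The acute phase gene Saa3 rose by 0.86 (adjusted p = 0.0207), the transcription factor genes Cebpb by 0.63 (adjusted p = 0.0137) and Cebpd by 0.55 (adjusted p = 0.0283), and Ccnd1, the gene of cyclin D1, by 0.49 (adjusted p = 0.0209), all from limma. Saa3 was dim in shCtrl, with log2 values of 3.88 and 3.97, so the size of its rise is uncertain. Other genes that rose were the survival genes Mcl1 (0.35) and Bcl2l1 (0.44), the cofactor gene Bcl3 (0.38), Pim3 (0.39), Vegfa (0.37) and Il4ra (0.37). Fos, an early response gene, had a log2 fold change of -0.44. Several of these genes, Lcn2, Saa3, Bcl3 and Cebpd among them, are also known to respond to NF-kappaB. Acute phase genes did not all move: Lrg1 had a log2 difference of -0.23 (limma, adjusted p = 0.116) and Serpina3n of -0.31 (adjusted p = 0.485). This list had 4 genes in common with the next one.

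Of 18 measured genes that control Il6 transcription or the stability of Il6 mRNA, 9 rose, 1 fell and 8 did not pass. Their median log2 fold change was 0.31. Over all genes except Il6 by their brightest probe set, 4.92% were called higher and 4.35% lower. At an unadjusted p under 0.05, 10 of the list were higher and 1 lower, against 9 and 1 by the methods' analysis of variance. Nfkb1, also listed, was not measured. This list too was drawn up with earlier results of these data known. Nfkbiz, which encodes IkappaB-zeta, a nuclear cofactor needed for Il6 induction in macrophages, had a log2 expression of 7.23 and 7.04 in shCtrl and of 8.79 in both shPW1 arrays, a log2 difference of 1.65 (limma, adjusted p = 0.00504). Zc3h12a, which encodes Regnase-1, an RNase that degrades Il6 mRNA, rose from 6.42 and 6.44 to 7.97 and 8.03, a log2 difference of 1.57 (limma, adjusted p = 0.00383). Genes of an inducer and of a degrader of Il6 were thus both higher. Nfkbia, the feedback inhibitor IkappaB-alpha, had a log2 difference of 1.10 (limma, adjusted p = 0.00573) and Nfkb2 of 0.68 (adjusted p = 0.0106), and Cebpb, described above, belongs here too. Zfp36, which encodes tristetraprolin, another protein that destabilizes cytokine mRNAs, had a log2 difference of -0.03 (limma, adjusted p = 0.778), but 0.023 once array medians had been removed. The gene that fell was Fos.

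These list counts rest on the full set of 4 arrays. With the replicate number as a block, 3 of the genes induced through Stat3 and 5 of the regulators of Il6 were called higher, and when all rows were tested 1 and 3 were.

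**Figure D4:**
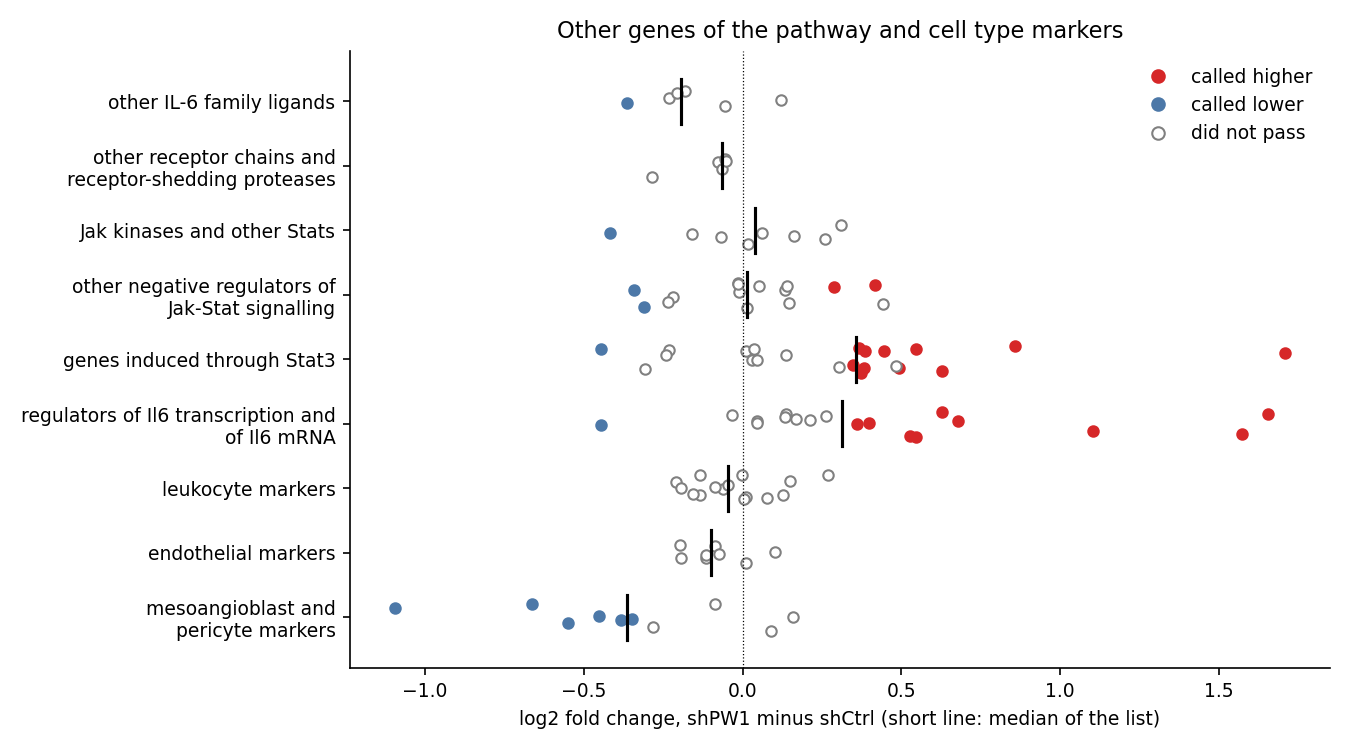
Log2 fold change of shPW1 over shCtrl (horizontal axis) for each measured gene of the other pathway lists and of the marker lists (vertical axis); each point is 1 gene by its brightest probe set, red called higher, blue called lower and open not passed, and the short line is the median of the list. The medians are 0.36 for genes induced through Stat3, 0.31 for regulators of Il6 and -0.37 for mesoangioblast and pericyte markers.

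The genes whose values over the 4 arrays were most like those of Il6, by the Euclidean distance between log2 values after subtraction of the shCtrl mean, were Cfap69 (distance 0.08), Tigit (0.31), Serpinb2 (0.40), Gpr176 (0.41) and Rasgrp3 (0.45). With 4 arrays in 2 groups this likeness is little more than a difference of about the same size, from 1.78 for Gpr176 to 2.01 for Cfap69.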

How the data were processed

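RNA of shCtrl and shPW1 mesoangioblasts (2 extractions per group, 1 array each) was hybridized to Affymetrix arrays. Log2 values of 35556 probe sets were deposited by the authors after RMA in Partek (version 6.4 per the labels), so background correction, normalization and summarization were done before deposit. Probe sets with exactly 1 symbol in the array's annotation (21789) were tested, which left out 1621 that list more than one symbol and 12146 that list no symbol. Symbols were updated by gene ID (21698 matched). Groups were compared with lmFit and eBayes in limma 3.58.1 (R 4.3.3), two-sided, with 2 residual and 2.72 prior degrees of freedom per probe set and Benjamini-Hochberg adjustment over all probe sets tested. The fit was tested on simulated data. With no detection call, the number of arrays limits the precision.

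The genes and lists were chosen with earlier results of these data known. In each list up to 5 called genes with the largest change are named. All 10 genes described, Peg3, a few central components and the 5 genes most like Il6 are named besides. Named after their values were seen were Osm, Cntfr, Il27ra, Il31ra, Notch3, Cspg4, Alpl, Cd34, Acta2, Rgs5, Lrg1, Serpina3n and Fos. So were the remaining called genes of the Stat3 list. Alternatives were a filter on dim probe sets (mean under the 25th percentile), a test of all rows, quantile normalization applied again, removal of each array's median, a robust prior with a trend, the methods' analysis of variance (p under 0.05 and a fold change over 1.2, or Benjamini-Hochberg), the replicate number as a block, the mean of a gene's probe sets, and leaving out each array. The block with crossed numbers and the list counts under each alternative were added after seeing the data.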

Additional observations from a re-analysis of the deposited data

How the results depend on the processing

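All log2 fold changes of the 10 genes kept their sign under every alternative that gave a value; Il6 has none under the filter on dim probe sets, which removed it. Reversals were seen for other named genes: with array medians subtracted Ptpn11 came to 0.045 and Zfp36 to 0.023, and with 1 array left out Adam17 ranged from -0.17 to 0.013, the latter without shPW1 replicate 1. In the reported fit, 3 of the tested genes were called higher and 2 lower, with 1075 probe sets higher and 908 lower. When all rows were tested, 0 of the genes were called higher and 0 lower, with 36 and 50 probe sets. With array medians subtracted 1 of the genes was called lower, and 1627 probe sets were higher. The trended robust prior gave 2735 and 1978 probe sets. The methods' analysis of variance at its own thresholds called the same numbers of genes, 3 and 2, but after Benjamini-Hochberg it called 0 and 0, with 1 probe set higher and 1 lower. With any 1 array left out the counts of genes and of probe sets ranged from 0 to 0 in either direction. The cause of these differences was not tested. The fits with 1 array left out also had fewer arrays.

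With the replicate number as a block, 1 gene was called higher (Lif) and 0 lower, with 256 and 258 probe sets. Replicates of the same number did not deviate together: the correlation of their differences between the groups was -0.11 over probe sets. With the numbers crossed, 1 gene was higher and 0 lower, with 213 and 224 probe sets. The labels do not say whether arrays of the same number were handled together. With 1 difference per group these values cannot decide it, and the reported fit did not pair the arrays. Changes of dim genes, Il6 in shCtrl above all, are limited by signal over background, which was not given per probe set.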
